A study of Homo sapiens with 3 samples.

Results

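The genes LPAR4, TRAF3IP3, TENM2, AUTS2, HTR7 and PALM2AKAP2 were near 0 reads in one hairpin line of MIAPaCa-2 cells and clearly present in the other. These 6 genes of 14949 listed genes were chosen by their measured reads in this same comparison, so their changes are a description and carry no test. LPAR4, TRAF3IP3, TENM2 and AUTS2 had between 136 and 618 reads in the METTL3 knockdown line and at most 4 in the control line. HTR7 and PALM2AKAP2 had 143 and 172 reads in the control line and 0 and 1 in the knockdown line. In the control line treated with a PLK1 inhibitor, a second library of that line, all 6 genes stayed on the side of the untreated control. The first 4 had at most 6 reads there, and HTR7 and PALM2AKAP2 had 198 and 134. The rule of choice also named this library as a second one of the control line, so its likeness to sh-CTL carries no test either.

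MIAPaCa-2 is an established human pancreatic cancer cell line, labelled as an epithelial cell. RNA sequencing was performed on 1 library of each of 3 cell samples of this line. The first carried a control short hairpin RNA and received no treatment (sh-CTL), and the second carried a hairpin against METTL3, also untreated (sh-METTL3). The third carried the control hairpin and was exposed for 24 h to 80 nM NMS-P937, a PLK1 inhibitor (sh-CTL + PLK1i, also given below as with PLK1i). Every cell carried a hairpin, and all were grown in the same serum-containing medium. Per the study's methods the knockdown line was received as a gift, and whether either line was a single clone is not given in the sources used here. With 1 library per group there was no replicate check, no p-value was computed, and the hairpin, the line, the culture and the library cannot be told apart.

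The 6 genes encode proteins with different functions. LPAR4 is a G protein-coupled receptor for lysophosphatidic acid, a signalling lipid, and HTR7 is a serotonin receptor that raises cyclic AMP. TENM2 is a teneurin, a large transmembrane protein that binds latrophilin receptors across cell contacts and is best known in neurons. AUTS2 is a nuclear protein of neural development that joins a form of Polycomb repressive complex 1, TRAF3IP3 is a TRAF3-binding adaptor known from immune cells, and PALM2AKAP2 joins a paralemmin to an anchoring protein of protein kinase A. METTL3, the target of the hairpin, is the catalytic subunit of the enzyme that writes N6-methyladenosine on RNA.

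Depth and labels were checked first. The libraries held between 37449315 and 47727515 reads in listed genes, and 30 to 53 genes per library were at 3 reads or fewer. METTL3 had 3378 reads in sh-CTL against 1781 in sh-METTL3 and 4223 with PLK1i. On the normalized count scale this was 41.9% of the sh-CTL level in the knockdown line and 98.7% with PLK1i. Normalized counts are reads scaled to a common library size, 1 read being worth 1.17, 0.927 and 0.921 in sh-CTL, sh-METTL3 and sh-CTL + PLK1i. Changes are differences of log2(normalized count + 1), a scale on which changes of genes with few reads come out too small.

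The sequence just before the start of each gene is shown because the 6 genes differed widely in how many CG dinucleotides, the sites of DNA methylation, it held. Each line gives the 100 bases before the most upstream RefSeq start, 5′ to 3′ on the strand of the gene, in build GRCh38.p14, with CG dinucleotides in capitals.
LPAR4 (chrX:78747620-78747719, plus strand): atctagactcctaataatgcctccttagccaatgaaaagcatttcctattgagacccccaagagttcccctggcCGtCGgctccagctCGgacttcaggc
TRAF3IP3 (chr1:209755953-209756052, plus strand): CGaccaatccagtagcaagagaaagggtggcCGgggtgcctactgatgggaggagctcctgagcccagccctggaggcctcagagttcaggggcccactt
TENM2 (chr5:167073142-167073241, plus strand): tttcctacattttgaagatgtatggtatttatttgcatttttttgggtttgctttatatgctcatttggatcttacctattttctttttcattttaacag
AUTS2 (chr7:69598375-69598474, plus strand): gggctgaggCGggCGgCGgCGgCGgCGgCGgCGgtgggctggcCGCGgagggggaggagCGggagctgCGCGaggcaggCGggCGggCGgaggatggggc
HTR7 (chr10:90858040-90858139, minus strand): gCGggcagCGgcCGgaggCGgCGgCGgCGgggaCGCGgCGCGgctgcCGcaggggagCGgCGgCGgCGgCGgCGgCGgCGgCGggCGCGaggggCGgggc
PALM2AKAP2 (chr9:109640687-109640786, plus strand): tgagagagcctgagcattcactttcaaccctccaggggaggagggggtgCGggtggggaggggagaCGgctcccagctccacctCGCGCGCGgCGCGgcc
LPAR4, TRAF3IP3 and TENM2 had 5, 2 and 1 CG dinucleotides in the 250 bases before these starts. Over 35116 such windows of RefSeq genes the median was 11, with quartiles of 3 and 23. AUTS2 and HTR7 lay at the other end, with 49 and 41, more than 99.8% and 98.3% of windows. PALM2AKAP2 had 21 at the start shown and 42 and 9 at the other 2 starts of its table entry. The other starts of TRAF3IP3 held 0 and 4 and that of TENM2 held 4. Thus 3 of the 4 genes present in sh-METTL3 had starts below the median CG count and AUTS2 did not, and HTR7, present in sh-CTL, stood near AUTS2. The RefSeq starts were not matched to the GRCh37 positions given below and may be other starts. The TENM2 stretch ends in a run of pyrimidines and cag, letters that also close introns. The deposited values are per gene, so they do not say which start was used, and DNA methylation was not measured.

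**Figure D1:**
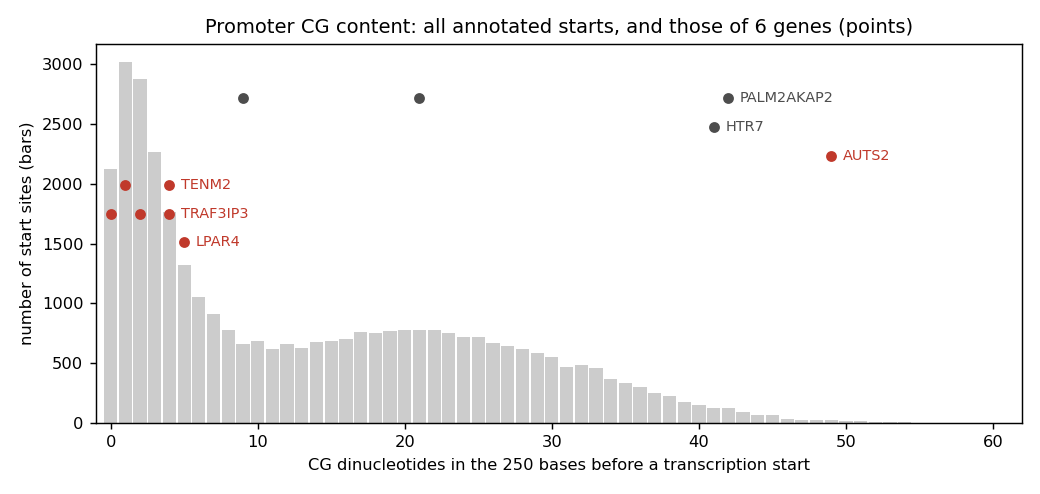
CG dinucleotides in the 250 bases before each RefSeq start (horizontal axis, count) against the number of starts (vertical axis, grey bars). Points mark the starts of the 6 genes at arbitrary heights, in red for genes present in sh-METTL3 and in dark grey for genes present in sh-CTL. The red points lie between 0 and 5 except AUTS2 at 49. Among the dark grey points HTR7 lies at 41 and PALM2AKAP2 at 9, 21 and 42.

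Short promoter letters were also counted on both strands of these 250-base windows. TATAAA, the letters of a TATA box, occurred once before LPAR4 and 2 times before TENM2, against 10.7% of all windows with a match. CCAAT occurred 2 times before LPAR4 and once before the start shown of PALM2AKAP2 and before the first and the third start of TRAF3IP3, against 32.0% of windows. GGGCGG, a GC box that contains a CG dinucleotide itself, occurred 6 times before AUTS2, 2 times before HTR7 and before the second start of PALM2AKAP2, and once before LPAR4, against 42.6%. CACGTG occurred before none of the starts of the 6 genes, against 6.34%. Such a match is only a description of letters.

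LPAR4 (ENSG00000147145, GRCh37 chromosome X, 78003206 to 78014211) had 4 reads in sh-CTL against 618 in sh-METTL3 and 6 with PLK1i. The normalized counts were 4.66, 573 and 5.52. The knockdown line therefore stood far above both libraries of the control line, which differed by 2 reads. The level was 123-fold higher in sh-METTL3 than in sh-CTL, with a 95% counting interval of 47.7 to 452 and a log2 change of 6.66. Against sh-CTL + PLK1i it was 104-fold higher, with an interval of 47.4 to 284. The ratio of sh-CTL + PLK1i to sh-CTL was 1.18, with an interval of 0.281 to 5.71, so no difference was detectable at this depth. Intervals were computed by the exact Clopper-Pearson method from the reads of the libraries compared. They cover counting error only, since amplified reads are not independent molecules.

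TRAF3IP3 (ENSG00000009790, chromosome 1, 209929377 to 209955665) had 1 read in sh-CTL against 175 in sh-METTL3 and 0 with PLK1i. On the normalized count scale the gene stood at 1.17, 162 and 0. Clear reads of it were found in the knockdown line only. The ratio of sh-METTL3 to sh-CTL was 139, with an interval of 24.6 to 5525 that the single read in sh-CTL left wide. Against sh-CTL + PLK1i, taken at a floor of 3 reads, the level was at least 58.7-fold higher. Exons of TRAF3IP3 overlap those of C1orf74 on the opposite strand, and whether strand was used in counting is not given in the sources used here. C1orf74 had 278, 417 and 365 reads in sh-CTL, sh-METTL3 and sh-CTL + PLK1i.

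TENM2 (ENSG00000145934, chromosome 5, 166406034 to 167691162) had 0 reads in sh-CTL against 140 in sh-METTL3 and 0 with PLK1i. Its normalized count in sh-METTL3 was 130. It was the member with no read in either library of the control line. With the floor of 3 reads, the level was at least 37.1-fold higher in sh-METTL3 than in sh-CTL and at least 47.0-fold higher than in sh-CTL + PLK1i.

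AUTS2 (ENSG00000158321, chromosome 7, 69063282 to 70258492) had 0 reads in sh-CTL against 136 in sh-METTL3 and 1 with PLK1i. The normalized count was 126 in sh-METTL3 and 0.921 with PLK1i. Only the knockdown line had clear reads of AUTS2, as for TENM2. It was at least 36.0-fold higher in sh-METTL3 than in sh-CTL, and its ratio to sh-CTL + PLK1i was 137, with an interval of 24.2 to 5448.

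HTR7 (ENSG00000148680, chromosome 10, 92500580 to 92617796) had the opposite pattern, with 143 reads in sh-CTL against 0 in sh-METTL3 and 198 with PLK1i. The normalized counts were 167, 0 and 182. Both libraries of the control line expressed the receptor and the knockdown line had no read of it. The level was at least 60.0-fold lower in sh-METTL3 than in sh-CTL and at least 65.6-fold lower than in sh-CTL + PLK1i. Between the libraries of the control line the ratio of sh-CTL + PLK1i to sh-CTL was 1.09, with an interval of 0.877 to 1.37, which includes no change.

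PALM2AKAP2 (ENSG00000157654, chromosome 9, 112260605 to 112934792) had 172 reads in sh-CTL against 1 in sh-METTL3 and 134 with PLK1i. Its normalized counts were 201, 0.927 and 123. The level was 216-fold lower in sh-METTL3 than in sh-CTL, with an interval of 38.3 to 8596, and 133-fold lower than in sh-CTL + PLK1i, with an interval of 23.5 to 5296. PALM2AKAP2 was the member whose libraries of the control line differed beyond counting error. The ratio of sh-CTL + PLK1i to sh-CTL was 0.615, with an interval of 0.487 to 0.775 and a log2 change of -0.70. This interval does not cover the spread between cultures, which 1 library per group cannot give.

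**Figure D2:**
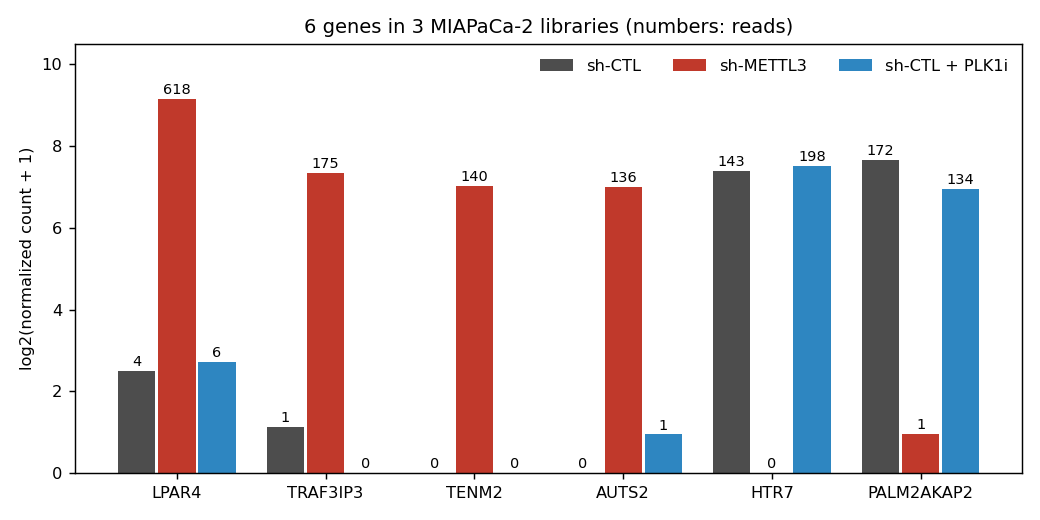
Level of the 6 genes, log2(normalized count + 1), in sh-CTL, sh-METTL3 and sh-CTL + PLK1i, 1 bar per library with its reads above it and no error bars because each group held 1 library. The red sh-METTL3 bars reach 6.99 to 9.16 for the 4 genes on the left and are at 0 and 0.95 for HTR7 and PALM2AKAP2, where the bars of both control-line libraries lie between 6.96 and 7.66.

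Levels were compared between genes per kilobase of exon, taken as the union over all annotated transcripts, as normalized counts in the line where each gene was present. LPAR4 was the most abundant of the 6, at 121 per kb in sh-METTL3, above 41.8% of positioned genes. HTR7 followed with 48.0 in sh-CTL and 52.5 in sh-CTL + PLK1i, above 26.2% and 27.8% of genes, and TRAF3IP3 with 20.9 in sh-METTL3, above 15.3%. PALM2AKAP2 stood at 10.9 in sh-CTL and 6.73 in sh-CTL + PLK1i. TENM2 and AUTS2 were lowest, at 6.09 and 5.07 per kb in sh-METTL3, above 4.54% and 3.55% of genes. By this length each of the 6 genes stood below the median gene even in the line where it was present. The order depended on the length used. Per kilobase of the canonical transcript, a choice made after the data were seen, LPAR4 stood at 129, TRAF3IP3 at 72.6, AUTS2 at 16.9 and TENM2 at 12.5 in sh-METTL3. By that length HTR7 was at 48.1 and PALM2AKAP2 at 26.3 in sh-CTL, so TRAF3IP3 came above HTR7 and AUTS2 above TENM2.

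In the table as a whole, 26 genes had at least 30 reads in sh-METTL3 and at most 3 in sh-CTL, or 0.174% of 14949. Another 26 genes, again 0.174%, had at most 3 reads in sh-METTL3 and at least 30 in sh-CTL. These shares are the background of a choice made on the same values, and nothing is read from the members' place among them. TRAF3IP3, TENM2 and AUTS2 were among the first 26, with the third, the fourth and the sixth highest number of reads in sh-METTL3. HTR7 and PALM2AKAP2 were among the second 26, with the fifth and the fourth highest number of reads in sh-CTL. LPAR4, with 4 reads in sh-CTL, lay just outside, and a limit of 4 reads gave 31 genes in that direction and included it. The median over the 26 genes was 49 reads in sh-METTL3 for those present there and 41.5 in sh-CTL for those present there.

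Against sh-CTL + PLK1i, 14 genes (0.0937%) were present in sh-METTL3 and near 0 under the same limits, TRAF3IP3, TENM2 and AUTS2 among them, and 26 (0.174%) were near 0 in sh-METTL3, HTR7 and PALM2AKAP2 among them. Between the libraries of the control line, 5 genes (0.0334%) were near 0 in sh-CTL + PLK1i and clear in sh-CTL, and 6 genes (0.0401%) had the opposite pattern. None of the 6 members was in either set, and nothing is read from this, since the rule of choice named both libraries of the control line. The comparisons with sh-CTL share that library, so each is given by its own values. Of the 26 genes present in sh-METTL3 and near 0 in sh-CTL, sh-CTL + PLK1i was also at 3 reads or fewer for 10, had at least 30 for 3 and lay between for 13. Of the 26 genes near 0 in sh-METTL3, it had at least 30 reads for 19, at most 3 for 4 and an intermediate number for 3.

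**Figure D3:**
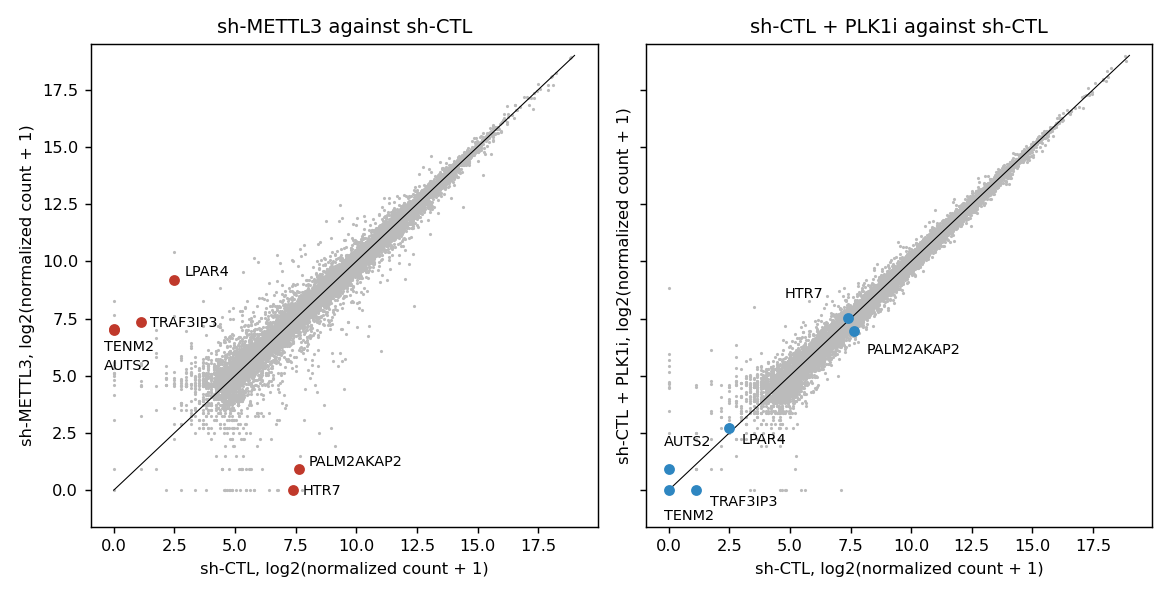
All 14949 genes (grey) as log2(normalized count + 1) in sh-METTL3 (left) and with PLK1i (right) against sh-CTL, with the line of equal levels and the 6 genes in colour; TENM2 and AUTS2 nearly coincide on the left. The 6 genes lie far from the line on the left, with log2 changes from -7.39 to 7.03, and within 1.12 of it on the right.

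The genes nearest in pattern were found by Euclidean distance of log2(normalized count + 1) over the 3 libraries, as a description. TENM2 and AUTS2 were nearest to each other, at 0.94 log2 units, and TENM2 was 1.16 from TRAF3IP3. HTR7 was nearest to PALM2AKAP2 (1.13) and to AIM2 (1.16), a sensor of cytosolic DNA with 92, 0 and 100 reads in sh-CTL, sh-METTL3 and sh-CTL + PLK1i. PALM2AKAP2 was nearest to the receptor phosphatase PTPRK (0.85), with 173, 2 and 209 reads. LPAR4 was nearest to the gap junction protein gene GJA1 (1.27), with 4, 1470 and 5 reads. After GJA1 came C1orf21, with 4, 208 and 21 reads, and the cytidine deaminase gene APOBEC3G, with 17, 494 and 16. With 3 libraries many patterns lie close together, and the distance says only how alike the levels were.

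The members stood on 6 different chromosomes, and the listed genes around each were examined, 10 on each side. Of these 120 neighbours, 4 (3.33%) were at least 2-fold higher in sh-METTL3 than in sh-CTL and 3 (2.50%) at least 2-fold lower. Over all genes the shares were 3.42% higher and 2.94% lower. For sh-CTL + PLK1i, 2 of the neighbours were higher and 2 lower, and over all genes 1.39% and 1.13%. Of the 120 neighbours, 2 (1.67%) were themselves near 0 in sh-CTL and clear in sh-METTL3, and 1 (0.833%) was switched the other way. Over all genes the share was 0.174% in each direction. All 3 stood next to a member or 1 gene further. Of them, 2 went the way of that member and 1, near TRAF3IP3, went the opposite way. Such counts are small, and their placing was not tested.

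RTL3, a gene derived from a retrotransposon, was the nearest listed gene to LPAR4, 88.4 kb before it on the opposite strand. RTL3 had 1 read in sh-CTL against 48 in sh-METTL3 and 4 with PLK1i, a ratio of sh-METTL3 to sh-CTL of 38.2 with an interval of 6.53 to 1538. It moved with LPAR4, while BRWD3, the listed gene on the other side at 1911 kb, had a log2 change of -0.25. The median log2 change of the 20 neighbours of LPAR4 was 0.17.

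Inside TENM2 on the opposite strand lies an unnamed lncRNA, ENSG00000254187 (chromosome 5, 167080233 to 167087486), whose exons do not overlap those of TENM2. It had 2 reads in sh-CTL against 68 in sh-METTL3 and 1 with PLK1i. The ratio of sh-METTL3 to sh-CTL was 27.0, with an interval of 7.20 to 228. Thus TENM2 and this lncRNA were both near 0 in the control line and present in the knockdown line. Since strand use in counting is not given, reads from TENM2 introns cannot be told apart from those of the lncRNA. The genes beyond were level: RPLP0P9, a ribosomal protein pseudogene, changed by 0.10 on the log2 scale, and WWC1, 27.5 kb from the other end, by -0.28.

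PALM2AKAP2 and PTPN3, a cytoplasmic tyrosine phosphatase gene, are annotated head to head, with their outermost ends 12 bases apart on GRCh37. These ends are taken over all annotated transcripts, 17 for PALM2AKAP2. The RefSeq starts of PALM2AKAP2 given above were not matched to this end and may lie far from PTPN3. Whether the genes share a start region was not tested. PTPN3 had 3543 reads in sh-CTL against 656 in sh-METTL3 and 3315 with PLK1i. It was 6.79-fold lower in sh-METTL3 than in sh-CTL, with an interval of 6.25 to 7.40, so both genes of the pair were lower, PALM2AKAP2 to 1 read and PTPN3 to a level that remained clear. In sh-CTL + PLK1i the log2 changes of the pair were -0.70 and -0.44. TXN, the thioredoxin gene on the other side, changed by 0.22 in sh-METTL3. KLF4, a transcription factor gene 2008 kb away, was 7.51-fold higher in sh-METTL3, with 194, 1834 and 522 reads in sh-CTL, sh-METTL3 and sh-CTL + PLK1i.

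The 20 neighbours of TRAF3IP3 were mixed, with 2 at least 2-fold lower in sh-METTL3 and 1 at least 2-fold higher. MIR205HG, the host of a microRNA expressed in epithelia, had 33 reads in sh-CTL against 1 in sh-METTL3 and 17 with PLK1i. LAMB3, a laminin subunit gene and the flanking listed gene, had 57, 32 and 104 reads, a log2 change of -1.14 in sh-METTL3. CD55, a complement regulator gene 2369 kb away, was 3.11-fold higher, and C1orf74 on the other flank changed by 0.25. The median over the 20 neighbours of TRAF3IP3 was -0.05.

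AUTS2 stood in a stretch of slightly lower genes. Of its 20 neighbours 18 were below 0 in sh-METTL3, with a median of -0.32 and a range from -0.66 to 0.10, and none changed 2-fold. The median of the 632 genes of chromosome 7 whose mean reached 50 normalized counts was -0.25. AUTS2 was chosen for being higher in sh-METTL3, so its opposite direction was fixed by that choice. The flanking genes ENSG00000273448 and TYW1B were 2264 and 1765 kb away, with changes of -0.17 and -0.15. In sh-CTL + PLK1i the median of the same neighbours was 0.08.

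No listed gene around HTR7 moved with it. RPP30, a ribonuclease P subunit gene 13.9 kb from its annotated start and on the opposite strand, had 1005 reads in sh-CTL against 1061 in sh-METTL3 and 1215 with PLK1i, a log2 change of -0.25 in sh-METTL3. KIF20B, a mitotic kinesin gene on the other side, changed by 0.13. None of the 20 neighbours of HTR7 changed 2-fold, and their median was 0.06.

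**Figure D4:**
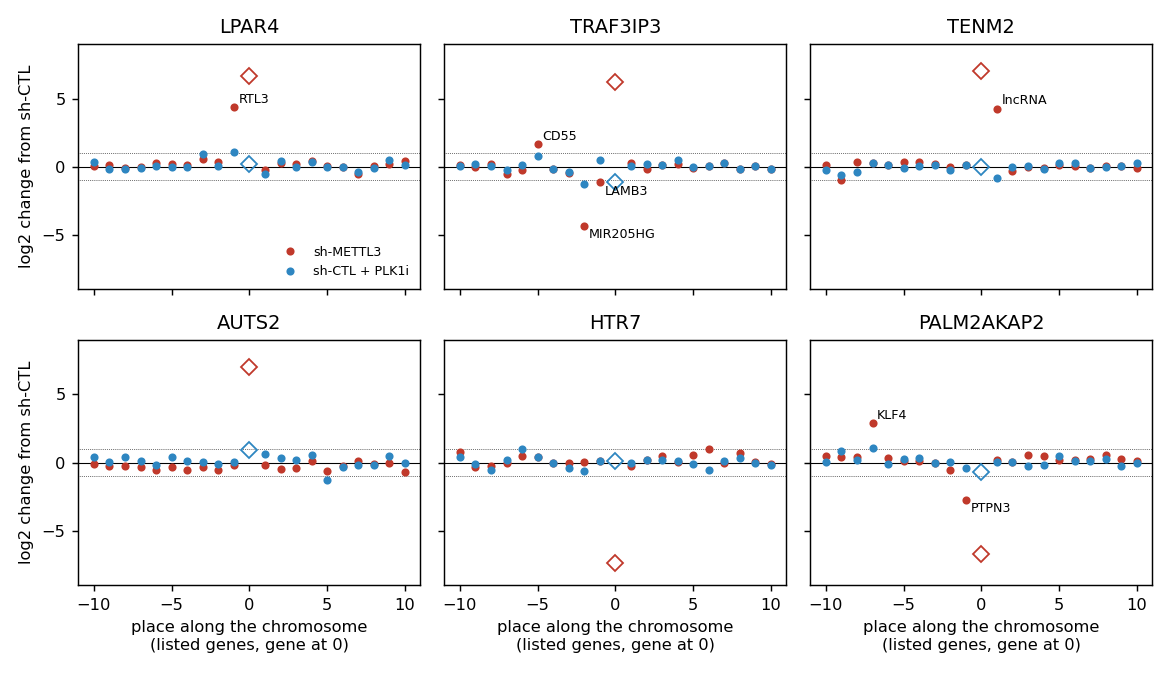
Log2 change from sh-CTL of the 10 listed genes on each side of each gene, ordered along the chromosome, in sh-METTL3 (red) and sh-CTL + PLK1i (blue), with the gene itself as an open diamond at 0 and dotted lines at a 2-fold change. RTL3 (4.39) and the lncRNA inside TENM2 (4.26) stand high beside their diamonds, PTPN3 (-2.76) stands low beside PALM2AKAP2, and the neighbours of AUTS2 and HTR7 stay between the dotted lines in sh-METTL3.

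The wider families of the 6 genes were examined in 6 lists. Of 94 other listed genes, 3 (3.19%) were at least 2-fold higher in sh-METTL3 than in sh-CTL and 4 (4.26%) at least 2-fold lower, against 3.42% and 2.94% of all genes. In sh-CTL + PLK1i none of the 94 changed 2-fold. The changes in the knockdown line fell in 4 of the 6 lists.

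Among genes of lysophosphatidic acid signalling, 1 of 8 others was lower and none higher, with a median of 0.15. LPAR3, a receptor of the other structural branch of the family, had 1100 reads in sh-CTL against 495 in sh-METTL3 and 1525 with PLK1i, a log2 change of -1.48 with a counting interval of -1.64 to -1.33. LPAR2 changed by 0.34. LPAR1, LPAR5 and LPAR6 and ENPP2, the secreted enzyme that makes the ligand, were not among the listed genes. PLPP1 and PLPP3, phosphatases that break the ligand down, were higher by 0.66 and 0.80 on the log2 scale, short of 2-fold. PLPP2, of the same family, changed by 0.06.

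Of the genes of serotonin receptors and cyclic AMP signalling, 1 of 13 others was higher and none lower, with a median of -0.10. HTR6, the other listed serotonin receptor and likewise one that raises cyclic AMP, had 148 reads in sh-CTL against 409 in sh-METTL3 and 165 with PLK1i. Its ratio of sh-METTL3 to sh-CTL was 2.20, with an interval of 1.82 to 2.67, while HTR7 had no read there. The serotonin transporter gene SLC6A4 and the synthesis genes TPH1 and TPH2 were not among the listed genes.

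The teneurin list was the one in which more genes changed than stayed level: of 5 others, 2 were higher and 1 lower. TENM3, the other listed teneurin, had 20 reads in sh-CTL against 111 in sh-METTL3 and 29 with PLK1i, a ratio of 4.41 with an interval of 2.72 to 7.50. TENM2 was chosen on this comparison, so TENM3 is the only listed teneurin whose direction was not fixed by the choice. ADGRL3, a latrophilin that binds teneurins, had 1807, 739 and 2103 reads, a log2 change of -1.62, and ADGRL1 changed by -0.97. The netrin receptor gene UNC5A, with 23, 70 and 49 reads, changed by 1.24. With 5 genes the list is small, and its median was 0.26.

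In 2 of the other 3 lists no gene changed 2-fold. None of 25 genes of the AUTS2 family and Polycomb repressive complex 1 changed 2-fold, and the AUTS2 relatives FBRSL1 and FBRS changed by 0.19 and -0.07. None of 20 TRAF and MAVS signalling genes changed 2-fold, with TRAF3 at -0.09, MAVS at -0.22, TRAF3IP1 at 0.19 and TRAF3IP2 at -0.14. Of 23 paralemmin, kinase A anchor and kinase A genes, 2 were lower: AKAP7, with 213, 112 and 219 reads and a log2 change of -1.25, and the microtubule protein gene MAP2, with 810, 445 and 1092 reads and a change of -1.19. PALM, the founding paralemmin, changed by -0.16. The medians of these 3 lists were -0.06, -0.05 and -0.11.

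**Figure D5:**
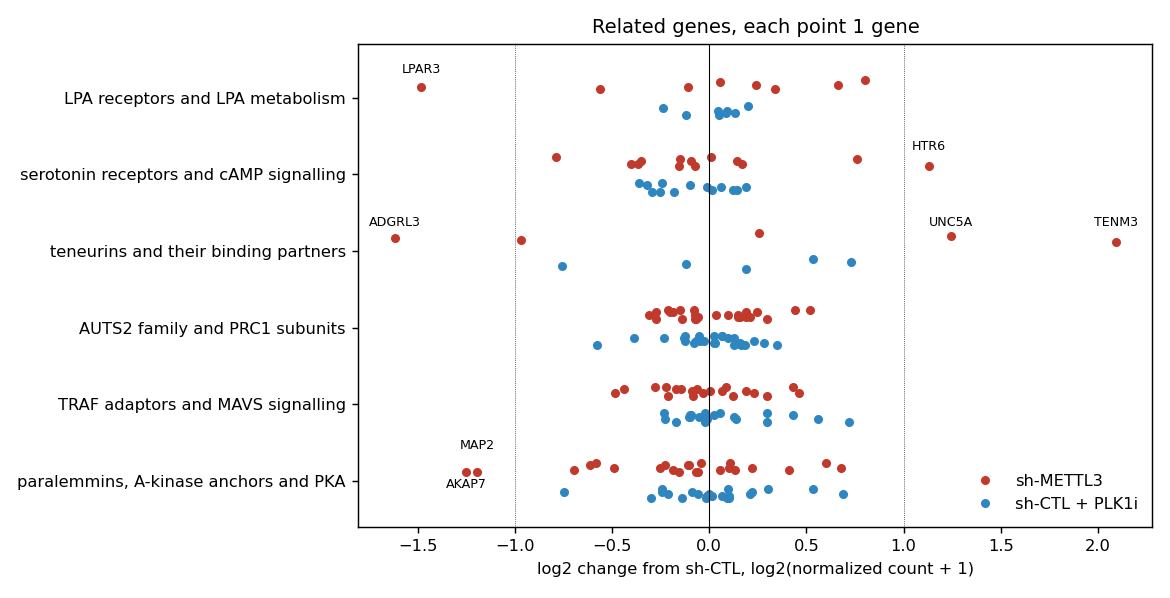
Log2 change from sh-CTL of the genes related to the 6 genes, 1 point per gene, in 6 lists (rows), in sh-METTL3 (red) and sh-CTL + PLK1i (blue), with dotted lines at a 2-fold change. Of 94 genes 7 lie outside the dotted lines in sh-METTL3, from ADGRL3 at -1.62 to TENM3 at 2.09, and none in sh-CTL + PLK1i.

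Since several of the 6 genes are known from neurons or immune cells, markers of other cell types were counted. Of 16 neuronal markers 6 were listed, with a summed level of 501 CPM, reads scaled to a common library total, in sh-CTL against 450 in sh-METTL3 and 448 with PLK1i, and RBFOX3, DCX and STMN2 were not listed. In sh-METTL3 the log2 change was 1.17 for GAD1, the enzyme that makes GABA, and 0.24 for the glutamate transporter gene SLC17A7. It was -0.81 for SYT1, -0.68 for SNAP25 and -0.44 for SYP, genes of synaptic vesicles and their release, and -0.06 for the tubulin gene TUBB3. Of 14 lymphoid and myeloid markers 3 were listed (CD14, CD68 and LYZ), while PTPRC and CD3E were not. Their sums were 43.8, 79.0 and 63.1 CPM in sh-CTL, sh-METTL3 and sh-CTL + PLK1i. CD68 made up most of each sum, with 1505, 3499 and 2875 reads, against 37, 43 and 17 for CD14 and 97, 165 and 119 for LYZ. In sh-METTL3 the log2 changes were 0.89 for CD68, 0.43 for LYZ and -0.11 for CD14. Of 12 epithelial and duct markers 6 were listed, with sums of 3651, 4354 and 3385 CPM, and EPCAM and CDH1 were not. In sh-METTL3 the log2 changes were 0.26, 0.27 and 0.43 for the keratins KRT8, KRT18 and KRT19 and 0.37 for MUC1. They were -0.18 for SOX9 and -0.35 for CLDN4. None of 9 acinar markers was listed. Of 13 fibroblast and endothelial markers 3 were listed, with sums of 1193, 943 and 942 CPM. Among them COL3A1 had 527, 46 and 411 reads, COL1A1 34, 6 and 36, and COL1A2 44100, 44201 and 44493. Scaled for depth, their log2 changes in sh-METTL3 were -3.82, -2.63 and -0.33, and with PLK1i -0.70, -0.25 and -0.33. The part of such markers in the switched genes was not tested.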

How the data were processed

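The deposited file is 1 table of log2 values made by the authors, 14949 genes by 3 libraries, and the symbols of the 6 genes were matched in it. The submitters' processing notes name FastQC 0.11.9, STAR 2.7.10, RSEM 1.3.3 and genome build hg19, without their role or order. How these libraries were normalized is not given in the sources used here, but the scaling of the deposited values equalled median-of-ratios factors of the recovered reads (0.856, 1.08 and 1.08). Low values in the table were log2 of a scaled whole read count plus 4: after undoing this, 100% of values under 2000 reads were whole to within 0.1. Reads were recovered by dividing by the worth of 1 read. No filter removed a gene, since the smallest mean was 7.72 normalized counts, and each gene reached at least 0.503 CPM in some library. With 1 library per group no count test could be run.

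Groups were taken from sample titles. Changes are differences of log2(normalized count + 1). A gene was counted as changed where this difference reached 1 in either direction, which is 2-fold. Folds against a library with 0 reads used a floor of 3 reads, or 0.0801, 0.0639 and 0.0629 CPM (reads scaled to a common library total) for sh-CTL, sh-METTL3 and sh-CTL + PLK1i, and are lower bounds. Ratios have 95% Clopper-Pearson intervals, conditional on the summed reads. Positions and lengths came from GENCODE 44 mapped to GRCh37, in which 14858 genes were found, and promoter sequences from RefSeq on GRCh38.p14. Named genes were METTL3, the 6 genes, the 3 nearest in pattern to each, their flanking genes and family relatives, and genes of the 6 related lists that changed 2-fold with a mean of at least 10. Neighbours that changed 2-fold and cell type markers were named after their values were seen. The members and lists were chosen with earlier results of these data known. Some genes of the naming rule and lists are not reported here and were left out of the list counts. Alternatives were other pseudocounts, scalings, limits on reads and numbers of neighbours, canonical transcript length, and sh-CTL + PLK1i as the control library. Recovery of reads was tested on simulated data. Python 3.11.15, numpy 2.4.6, pandas 2.3.3, scipy 1.17.1 and matplotlib 3.10.9 were used.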

Additional observations from a re-analysis of the deposited data

How the results depend on the processing

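Median-of-ratios scaling and no filter on low values could only return the values reported, since the deposited scaling matched median-of-ratios and no gene was filtered, and these 24 values are not counted. Of 110 other values for 34 results, 95 stayed within their limits and 15 moved further. The limits were the counting interval for changes of the 6 genes and 1.5 times the value reported for counts. For neighbour medians they were the 6th lowest and the 6th highest neighbour, a wide range. No log2 change of the 6 genes changed sign. The median of the LPAR4 neighbours with PLK1i did, from -0.013 to 0.029 with 5 listed genes on each side. The log2 changes between the hairpin lines ranged over 6 alternatives from 6.06 to 6.79 for LPAR4, 5.01 to 7.35 for TRAF3IP3, 5.06 to 8.03 for TENM2, 5.02 to 7.98 for AUTS2, -8.39 to -5.42 for HTR7 and -7.14 to -5.38 for PALM2AKAP2. The end nearest 0 came with a pseudocount of 4, which gave HTR7 -5.42, nearer 0 than the -5.59 at which its counting interval ends. Numbers of switched genes moved with the limits on reads by construction. With at most 0 or at most 10 reads as near 0, 11 and 56 genes were near 0 in sh-METTL3 and 13 and 88 near 0 in sh-CTL. With at least 20, 50 or 100 reads as clear, 40, 10 and 5 genes were near 0 in sh-METTL3, and at 50 and 100 reads 13 and 8 were near 0 in sh-CTL. Requiring sh-CTL + PLK1i to match sh-CTL left 10 of the latter. With a mean of at least 50 normalized counts required, 250 genes were 2-fold higher and 230 lower in sh-METTL3, against 512 and 440 without it, and 58 higher and 31 lower in sh-CTL + PLK1i, against 208 and 169. Under the 3 scalings the median log2 change of all genes in sh-METTL3 was at most 0.02. No paired analysis was possible because each group held 1 library. Depth limited the ratios that rest on 0 or 1 read to a bound or a wide interval, and the table was already restricted to expressed genes.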

Other observations

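GGACT, a short form of the sequence context in which METTL3 methylates adenosine, was counted in the canonical GENCODE transcript of each gene. Of 12206 protein-coding genes with such a transcript 91.2% held at least 1 match, with a median of 3 and of 0.927 per kb. TRAF3IP3 and AUTS2 were above the median per kb, with 4 and 12 matches (1.79 and 1.61 per kb). TENM2 and PALM2AKAP2 were near it, with 11 and 7 matches (1.06 and 0.919 per kb). LPAR4 and HTR7 were below it, with 1 and 2 matches (0.225 and 0.577 per kb). The genes present in sh-METTL3 thus covered the range from LPAR4 to TRAF3IP3, and those present in sh-CTL lay within it. A match is a stretch of letters, and RNA methylation was not measured in these libraries.

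Gene span also differed widely among the 6 genes. TENM2 and AUTS2 span 1285 and 1195 kb on GRCh37, each longer than 99.9% of positioned genes, and PALM2AKAP2 spans 674 kb, longer than 99.5%. HTR7 spans 117 kb and TRAF3IP3 26.3 kb, longer than 86.5% and 49.2% of genes, and LPAR4 spans 11.0 kb, longer than 28.4%.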
